A study of Sus scrofa with 6 samples.

Results

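The polyubiquitin gene UBB and single copies of the ubiquitin sequence were followed in small RNA libraries of the duodenum of 5 Sutai piglets. Members were chosen by their sequence among the stretches of genome that the deposited lists contain, so a locus had to reach the lists' lowest count of 5 in some library to be included. A stretch was a member when it translated, in any frame, to at least 25 residues at 70% identity or more to the ubiquitin unit of 76 residues, and matched ubiquitin better than UBD, a ubiquitin-like protein with a related fold. Of 37376 stretches outside the mitochondrial genome, 98 met the rule, and the 38 described here lay at 5 loci. They are UBB, with 27 stretches, and copies on chromosome 1 (2 copies with 3 stretches each), chromosome 10 (4 stretches) and chromosome 15 (1 stretch).

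The groups were 3 GG piglets (512, 2134 and 2383), sensitive to Escherichia coli with F18 fimbriae, and 2 AA piglets (524 and 2129), resistant to it. GG and AA are genotypes at position M307 of the fucosyltransferase gene FUT1, and all piglets were 28 days old. By the labels, GG piglet 512 and AA piglet 524 came from a full-sib pair and so did GG piglet 2134 and AA piglet 2129, whereas piglet 2383 stood alone because its AA sib failed in sequencing. Piglet 512 was sequenced in 2 runs, which were summed as 1 animal in every comparison. Whole duodenal tissue was used, and in such tissue fewer cells of a type and less RNA per cell cannot be told apart.

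Ubiquitin is a small protein that cells attach to other proteins, often to send them to the proteasome for degradation. It is made as part of longer precursors. UBB encodes head-to-tail ubiquitin units that are cut apart after translation, and it is known to be induced by cellular stress. RPS27A encodes 1 ubiquitin unit fused to a ribosomal protein. Ubiquitin genes are active in nearly every cell type, those of the duodenal lining included.

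Library totals ranged from 42354 to 192861 counts in the GG and from 56334 to 127075 counts in the AA libraries. The median listed count was 6 in each library. Of the 38 stretches, 33 (86.8%) were listed in 1 library, against 29252 of 37376 stretches (78.3%) outside the mitochondrial genome. The stretches of different libraries overlapped at shifted start positions, so loci were compared by summing their stretches.

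The stretches on chromosome 12 lay within chr12:56212926-56213897 in the files' coordinates, whose genome build is not given in the sources used here. On the minus strand they held an open reading frame of 3 whole ubiquitin units of 228 bases, followed by a cysteine codon and a stop. They were named UBB from the number of units and the chromosome of UBB in the RefSeq gene table. Here and below, the strand is that of the reading frame and not of the reads. The last 36 bases of the last unit are shown with the added codon and the stop in capitals.
UBB unit 3, end: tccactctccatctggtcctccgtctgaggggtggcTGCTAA
The 3 units encoded the same 76 residues. Their sequences are shown because reads of one unit can match the others, with capitals at the 8 bases where the units are not all alike.
UBB unit 1: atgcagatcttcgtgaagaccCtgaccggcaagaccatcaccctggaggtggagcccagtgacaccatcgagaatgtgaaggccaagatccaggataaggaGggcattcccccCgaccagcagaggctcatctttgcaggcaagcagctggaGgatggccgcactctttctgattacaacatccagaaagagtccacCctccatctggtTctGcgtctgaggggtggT
UBB unit 2: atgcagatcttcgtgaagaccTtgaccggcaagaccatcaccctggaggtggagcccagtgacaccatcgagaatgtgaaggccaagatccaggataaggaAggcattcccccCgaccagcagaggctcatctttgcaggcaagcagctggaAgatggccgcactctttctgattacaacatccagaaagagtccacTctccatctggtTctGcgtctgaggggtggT
UBB unit 3: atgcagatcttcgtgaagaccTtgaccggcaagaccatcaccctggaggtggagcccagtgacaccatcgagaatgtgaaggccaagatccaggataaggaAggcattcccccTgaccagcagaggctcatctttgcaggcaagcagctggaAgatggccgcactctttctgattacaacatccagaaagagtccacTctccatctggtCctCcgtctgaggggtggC
The units lie, in this order, at chr12:56213608-56213835, chr12:56213380-56213607 and chr12:56213152-56213379, all on the minus strand. Relative to unit 1, unit 2 had C22T, G102A, G153A and C198T, with positions counted from the first base of the unit. Unit 3 had these 4 changes and also C114T, T210C, G213C and T228C. Of the 8 variable bases, 7 stood at the third base of a codon. The pairs of units differed at 4 to 8 bases (96.49% to 98.25% identity).

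Stretches with the same place in different units often had equal or nearly equal counts. In GG piglet 2134 the leading place began at base 44, with 63 and 61 counts in units 2 and 3, and a further stretch beginning at base 60 of unit 1 had 45 counts. In run 1 of GG piglet 512 the leading place began at base 173, with 23 counts each in units 1 and 2 and 6 counts at the same distance before unit 1. Run 2 of that piglet had 15 counts each in units 1 and 2 at base 167 and 8 counts at the same distance before unit 1.
In both runs the copies in units 1 and 2 were equal and the one beginning ahead of the gene's first unit was lower. Run 2 also had 16 and 17 counts in units 1 and 2 at base 44. In GG piglet 2383 a place at base 184 had 10 counts each in units 1 and 2. AA piglet 524 listed 1 place, at base 10, with 5 counts each in units 2 and 3. AA piglet 2129 had 10 counts each in units 1 and 2 at base 170, and its other places had 5 to 10 counts per stretch.

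The 27 matching stretches of UBB had 80 and 86 counts in the runs of GG piglet 512, 169 in GG piglet 2134, 35 in GG piglet 2383, 10 in AA piglet 524 and 58 in AA piglet 2129. Their sequences were all distinct, and 25 of them were listed in 1 library. Counted once per place in the unit, by its highest copy, UBB had 51 and 47 counts in the runs of piglet 512, 108 in 2134 and 15 in 2383, all GG, and 5 in 524 and 34 in 2129, both AA. The 51 counts hold 11 at base 26 of unit 2 and 11 at base 27 of unit 3. These were taken as different places, so the same reads may still count in both units. UBB held 79.3% to 82.5% of the counts of the 5 loci in the GG libraries, 100% in AA piglet 524 and 74.4% in AA piglet 2129. In piglet 524 that share rests on 10 counts in 2 stretches, each at the lowest listed count of 5. The shares take the identical chromosome 1 copies as separate loci, which lowers the share of UBB where these copies were listed. In piglet 2129 the 5 loci had 78 counts, or 68 with these copies counted once, of which UBB had 58.

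**Figure D1:**
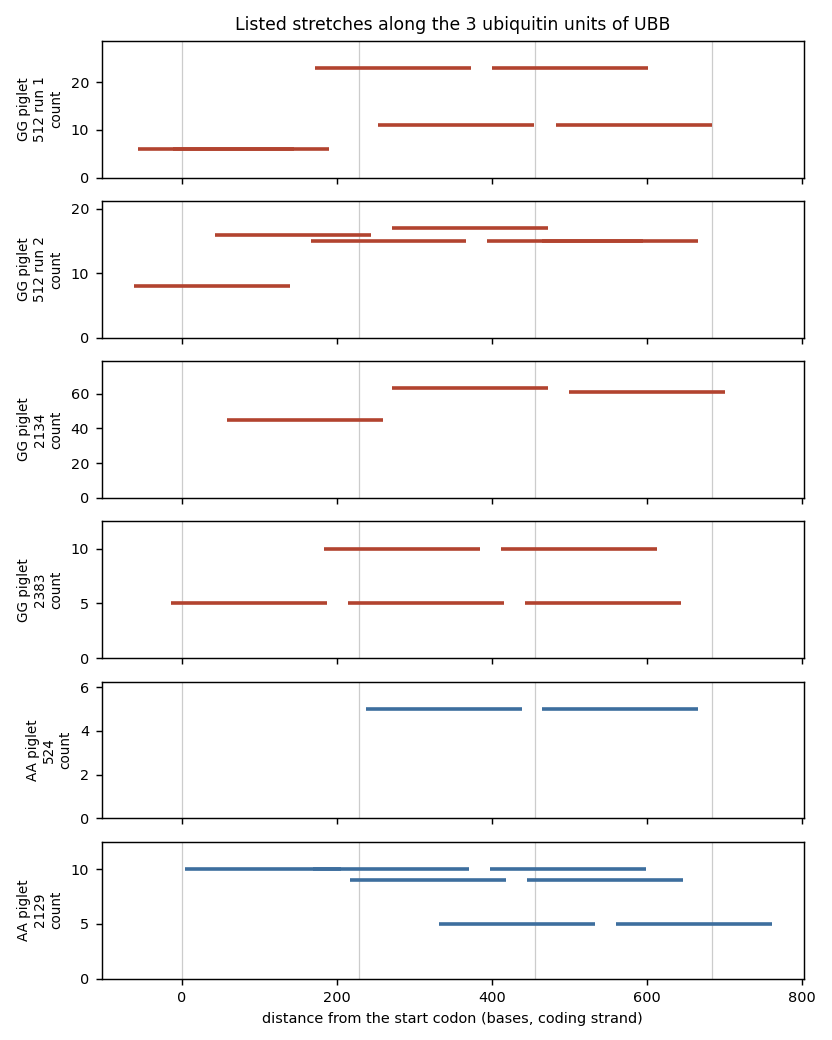
Count (y axis, own scale in each panel) of each listed UBB stretch drawn over the bases it spans, by distance from the start codon on the coding strand (x axis), with 1 panel per library. GG libraries are in red above AA libraries in blue, grey lines mark unit boundaries, and the same place recurs in neighbouring units, as with 63 and 61 counts in GG piglet 2134.

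Scaled counts of UBB were higher in GG than in AA piglets on average, but the groups overlapped and the difference did not pass the test. Counts were divided by a size factor per piglet (trimmed mean of M values, TMM), which ranged from 0.641 to 1.76. The UBB region, which includes 5 neighbouring stretches that do not match ubiquitin, had 100.3, 163 and 54.6 scaled counts in GG piglets 512, 2134 and 2383, against 13.2 and 63.0 in AA animals 524 and 2129. Piglet 2383 (GG) lay below piglet 2129 (AA), so the groups overlapped. Scaled by total counts alone they did not: the matching UBB stretches then had 90.7, 89.1 and 84.1 in the GG piglets in that order, and 18.1 and 46.4 in the AA piglets. With that scaling, 598 of the 2777 regions tested had every GG piglet above both AA piglets. With TMM the means were 106 ± 54.7 in GG and 38.1 ± 35.2 in AA piglets (SD, n = 3 and 2). The log2 difference was 1.70 ± 0.72 (SE) with an adjusted p of 0.532 (limma).

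None of the 4 regions tested among the 5 loci passed an adjusted p of 0.05 (limma), and neither did any of the 2777 regions tested (0% called), of which 241 had an unadjusted p under 0.05. A region was tested when at least 2 piglets had 10 listed counts or more, and the chromosome 15 copy was too low. The chromosome 10 copy passed this filter only through GG piglets and was unlisted in both AA piglets, so its order between the groups was fixed by the filter and its test is not reported. In none of the other 3 regions was every GG piglet above both AA piglets, as was the case in 596 of the 2777 regions (21.5%). The log2 difference was 1.70 for UBB and -0.14 for each chromosome 1 copy, which are identical in sequence and count as 1 measurement, against a median of 0.21 over all regions.

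With the full-sib pair as a replicate block, which leaves piglet 2383 out of the contrast, the limma adjusted p was 0.0402 for UBB (log2 difference 2.10), and 57 of 2777 regions were called, each higher in GG. Within the pairs, the summed UBB stretches were 7.16 times higher in GG piglet 512 than in AA piglet 524. In the other pair they were 2.67 times higher in GG piglet 2134 than in AA piglet 2129. The value of 7.16 is uncertain, since piglet 524 had only 10 counts, 5 each at the same place in units 2 and 3. These stood at the lowest listed count, unlisted stretches added nothing, and the same reads may count in both units. With no filter on low regions, the adjusted p of UBB was 0.0139, among 88 called of 24665 regions that were mostly unlisted in most piglets.

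The UBB difference moved most with the choice of AA piglet. Without AA piglet 524 the log2 difference was 0.52 (limma adjusted p 0.815), and without AA piglet 2129 it was 2.81 (limma adjusted p 0.222). Of 11 enterocyte markers on the list, 4 were searched and all had listed stretches: APOA1, an apolipoprotein of chylomicrons, S100G, a calcium-binding protein, and FABP1 and FABP2, fatty acid binding proteins. Piglet 524 also had their lowest sum. Their scaled sums were 412, 498 and 338 in GG piglets 512, 2134 and 2383, against 42.1 and 230.5 in AA piglets 524 and 2129. FABP1 and FABP2 were not listed in piglet 524, and FABP2 was not listed in piglet 2383. HBB, a haemoglobin chain of red cells, was listed only in piglet 524, with 10 counts, HBA had 0 stretches, and ALB, a liver protein, had 6 counts in run 1 of GG piglet 512 alone. The part of these markers in the ubiquitin differences was not tested.

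**Figure D2:**
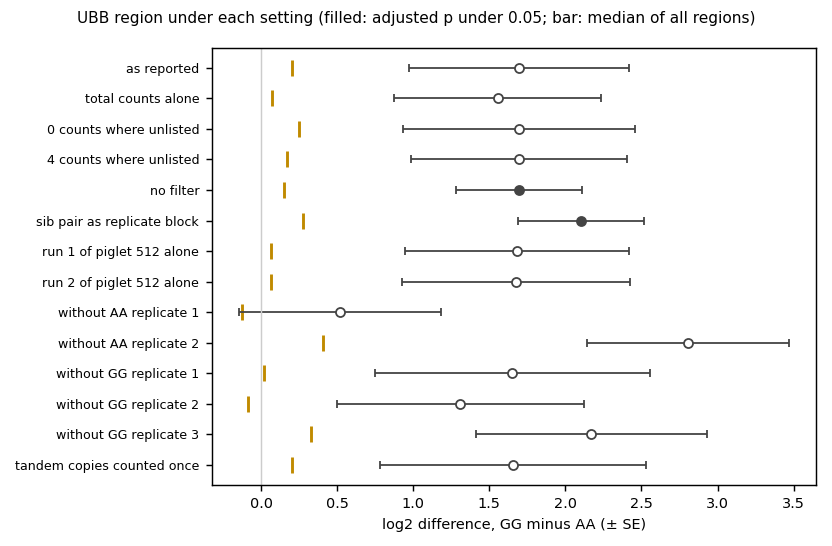
Log2 difference, GG minus AA, with its SE (x axis) for the UBB region under each setting (rows), with filled points at an adjusted p under 0.05 and a yellow bar at the median of all regions. The points lie from 0.52 to 2.81, and those with no filter and with the replicate block are filled.

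The way of counting the tandem units changed the size of the scaled counts of UBB but left GG above AA on average. Summed over its stretches, GG averaged 2.87 times AA. With each place counted once the ratio was 2.95, and with the highest stretch of each library it was 3.86. For piglet 512 that last value adds the highest stretches of its 2 runs, which lay at different places and had 23 and 17 counts. Scaled by TMM, the groups overlapped in the first 2 ways, and with the highest stretch of each library UBB had 22.7, 56.0 and 15.6 scaled counts in GG piglets 512, 2134 and 2383, against 6.58 and 9.69 in AA piglets 524 and 2129.

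**Figure D3:**
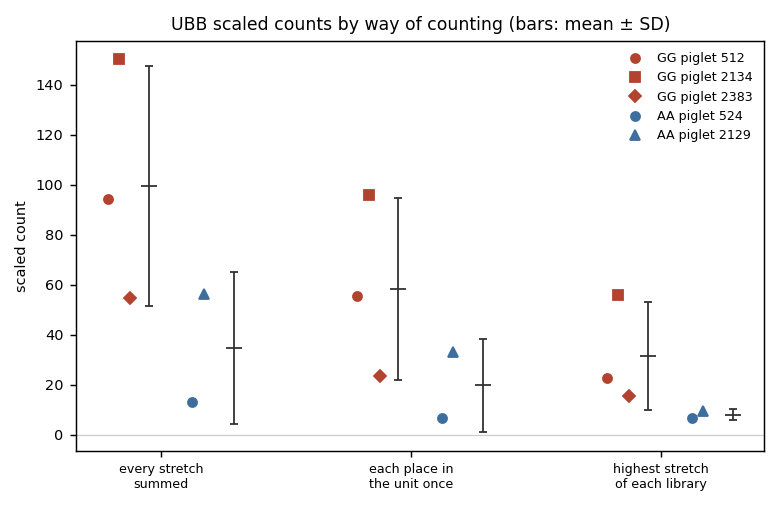
Scaled count per piglet (y axis) of UBB under 3 ways of counting (x axis), with GG piglets in red, AA piglets in blue and bars at the mean ± SD of each group. GG piglet 2383 falls below AA piglet 2129 in the first 2 ways and above it, at 15.6 against 9.69, with the highest stretch of each library (for piglet 512 added over its 2 runs).

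Summed over the 38 stretches of the 5 loci, the scaled counts were 114.5, 189 and 67.1 in GG piglets 512, 2134 and 2383, while AA piglets 524 and 2129 had 13.2 and 75.5. Piglet 2383 (GG) lay below piglet 2129 (AA) in this sum, which holds the identical chromosome 1 copies as separate loci. With these copies counted once, the sums were 111.1, 180.3 and 67.1 in the GG piglets in that order, while the AA piglets had 13.2 and 65.9. The groups then did not overlap, but only through the chromosome 10 copy, which was unlisted in both AA piglets. It gave 12.5 of the 67.1 in piglet 2383, where UBB gave the other 54.6. Scaled by total counts alone, the sums of all 38 stretches, chromosome 10 copy included, did not overlap between the groups either. There the lowest GG piglet had 103.3 and the highest AA piglet 62.4. Over all 38 stretches the mean was 124 ± 61.6 in GG and 44.4 ± 44.1 in AA piglets (SD, n = 3 and 2), a ratio of 2.79, or 3.025 with the chromosome 1 copies counted once. The chromosome 10 and 15 copies were listed only in GG piglets and entered the AA sums as 0. They could only raise these ratios, and for UBB alone the ratio was 2.87. The 38 stretches took 0.101% and 0.117% of the total in the runs of GG piglet 512, with 95% Wilson intervals of 0.0826% to 0.123% and 0.0964% to 0.141%. They took 0.11% (interval 0.0966% to 0.126%) in GG animal 2134, and 0.102% (interval 0.0754% to 0.137%) in GG animal 2383. Their share was 0.0178% (interval 0.00964% to 0.0327%) in AA animal 524 and 0.0614% (interval 0.0492% to 0.0766%) in AA animal 2129. The interval of GG animal 2383 overlapped that of AA animal 2129, whose counts hold the identical chromosome 1 copies as separate loci. With these copies counted once the share of 2129 was 0.0535% (interval 0.0422% to 0.0678%), below the interval of 2383, which did not change. The 43 counts of 2383 include 8 at the chromosome 10 copy, so this gap is drawn partly from a locus listed in GG piglets alone. The intervals cover counting error only and take every count as independent, which reads given to several units are not. When a match had to run over 40 residues, 34 stretches remained and the ratio of GG to AA was 2.45. The stretches lost were all of the chromosome 10 and 15 copies, listed only in GG piglets, so the ratio could only fall.

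The single copies were compared with the first bases of UBB unit 1, from the start codon to residue 35 where they reach it. Capitals mark bases that differ from UBB unit 1 in a pairwise alignment, and bases missing from a copy are not shown.
Chromosome 1 copy 1: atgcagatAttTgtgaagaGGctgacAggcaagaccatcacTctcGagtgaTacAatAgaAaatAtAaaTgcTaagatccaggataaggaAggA
Chromosome 10 copy: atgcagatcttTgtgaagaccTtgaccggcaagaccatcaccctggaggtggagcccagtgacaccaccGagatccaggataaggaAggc
Chromosome 15 copy: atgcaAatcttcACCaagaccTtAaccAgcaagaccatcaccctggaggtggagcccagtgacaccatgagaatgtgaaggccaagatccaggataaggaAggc
The sequences lie, in this order, at chr1:268849383-268849476, chr10:25254446-25254535 and chr15:59276436-59276539, all on the minus strand.

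The chromosome 10 copy, chr10:25254340-25254597, was listed in all 3 GG piglets and in neither AA piglet. It had 17 and 7 counts in the runs of GG piglet 512, 19 in GG piglet 2134 and 8 in GG piglet 2383, and it was not listed in AA piglets 524 and 2129, where it had fewer than 5 counts at any stretch. No fold change or test is given, since the AA counts are known only to be under the listing limit.

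In sequence the chromosome 10 copy had 89.5% identity over 210 aligned columns to UBB units 1 and 2. It had a run of 15 missing bases and 1 extra base, and its first in-frame stop was at codon 53, counted from its start codon. Just upstream of its start codon, 44 columns aligned at 88.6% identity to chromosome 12 bases that are separated by 657 others from the part aligned to UBB unit 1. On chromosome 10 these aligned parts met directly, sharing 4 bases. A neighbouring region of chromosome 10 aligned over 127 columns at 96.1% identity to the bases after the UBB coding sequence.

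The chromosome 1 copies, chr1:268849193-268849476 and chr1:269026762-269027045, were identical over 284 bases and 177569 bases apart, so their counts cannot be told apart. Both had, in another frame, the start of the ribosomal protein S27a after ubiquitin. RPS27A itself is on chromosome 3 in the RefSeq gene table. Each copy had 77.2% to 78.6% identity to the UBB units. The copies lacked 11 bases of the unit in 1 run, and their first in-frame stop was at codon 17 from the start codon. Each copy had 6 counts in run 2 of GG piglet 512, 10 in GG piglet 2134 and 10 in AA piglet 2129, and was not listed in run 1 of piglet 512, in GG piglet 2383 or in AA piglet 524. Scaled, each had 3.40 and 8.88 in GG piglets 512 and 2134, against 9.69 in AA piglet 2129. The unlisted piglets entered the fit with 2 counts each, which is 3.12 scaled in GG piglet 2383 and 2.63 in AA piglet 524. The groups overlapped, with a log2 difference of -0.14 ± 0.75 (SE, limma adjusted p 0.933) whose sign changed between settings.

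**Figure D4:**
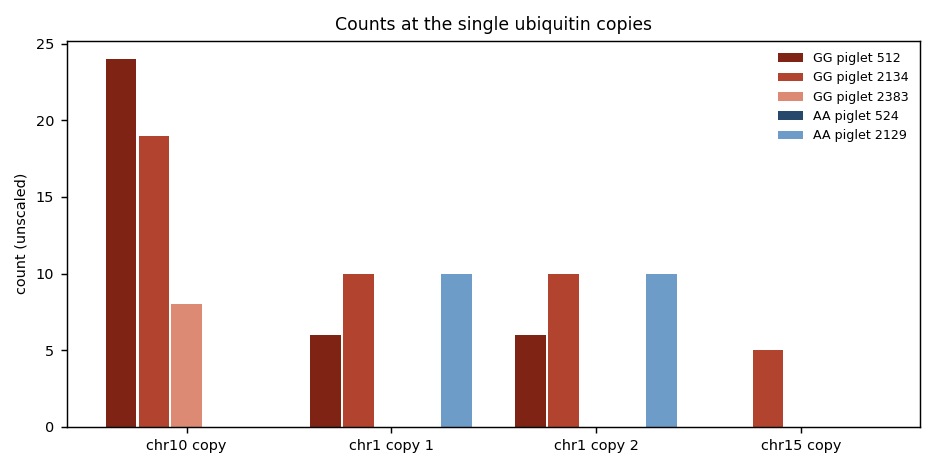
Unscaled counts (y axis) of the matching stretches of the single ubiquitin copies (x axis) in each piglet. GG piglets are in reds left of AA piglets in blues, with no bar where no matching stretch of a locus was listed. The chromosome 10 copy had 24, 19 and 8 counts in GG piglets 512, 2134 and 2383 and no bar in the AA piglets.

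The chromosome 15 copy, chr15:59276374-59276574, stood nearest to the limit of the rule, with 20 of 25 residues identical where 18 were needed, and had 5 counts in GG piglet 2134 alone. It had 85% to 86.8% identity to the UBB units, lacked 4 single bases and had an in-frame stop at codon 26. Just outside the rule, 2 overlapping stretches of the same copy had 17 and 16 identical residues, with 7 counts in run 2 of GG piglet 512 and 9 counts in GG piglet 2134. Only stretches with at least 13 of 25 residues identical to ubiquitin were examined here. Those among them that matched UBD better had 14 residues identical to ubiquitin and 23 to UBD. No member had more than 13 residues identical to UBD.

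Of the other pathway genes searched by sequence, SUMO2, a ubiquitin-like modifier, had 2 matching stretches, with 5 counts in run 1 of GG piglet 512 and 5 counts in AA piglet 2129. NEDD8, a ubiquitin-like modifier, FAU, a ubiquitin-like protein fused to ribosomal protein S30, and UBE2D3, which passes ubiquitin to its targets, had 0 matching stretches. With a lowest listed count of 5, this says only that no stretch reached it.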

How the data were processed

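Small RNA of duodenal tissue was sequenced in 6 libraries of 5 piglets. Per the labels, total RNA was extracted with Trizol. The authors deposited lists of whole-number counts per stretch of 201 bases with its bases and position, per the file headers. Neither aligner, counting rule nor build is given in the sources used here. Stretches with fewer than 5 counts were not listed.

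The unit of 76 residues was read from tandem reading frames in the lists and is the one that each UBB unit encodes. Some loci that meet the rule are not reported here. Other proteins searched (UBD, markers and pathway genes) were written from memory in their human form, unchecked against any database. Most of the pathway and marker lists were not searched. Members, lists and tests were chosen with earlier results of these data known. Loci whose matching stretches summed to at least 20 counts were described by piglet.

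Overlapping stretches were merged into 24665 regions. Counts were scaled by TMM (trimming 30% of ratios and 5% of abundances, over 1586 regions listed in every piglet). An unlisted region was given 2 counts. limma 3.58.1 in R 4.3.3 fitted a mean-variance trend to log2(scaled count + 1) over regions with at least 10 counts in at least 2 piglets, with Benjamini-Hochberg adjustment and calls under 0.05. The fit was first run on simulated counts drawn independently for each region. That run checked the working of the fit and not its error rate in these data. A count model was planned as an alternative and was not used, since the deposited lists are cut at a minimum count and are not a count table. Sums over members got no p-value. Full-sib pairs come from the labels. Deviations from the genotype means correlated at 0.0472 in pair 1 and 0.323 in pair 2, over 2777 regions. With only 2 AA piglets, their deviations are equal and opposite in every region, so these correlations are not separate measures of the pairs. Sibs may share a litter, which the labels do not say. Python 3.11.15, NumPy 2.4.6, SciPy 1.17.1, Biopython 1.88 and matplotlib 3.10.9 were used.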

Additional observations from a re-analysis of the deposited data

How the results depend on the processing

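UBB was higher in GG than in AA under all 14 settings (the reported one and 13 alternatives), with log2 differences from 0.52 without AA piglet 524 to 2.81 without AA piglet 2129. Since UBB was listed in every piglet, the settings with 0 or 4 counts where unlisted and with no filter could not change its difference of 1.70. It was past an adjusted p of 0.05 (limma) under 2 alternatives, with the full-sib pair as replicate block (2.10) and with no filter (1.70, the same difference as reported). Over the alternatives its adjusted p ranged from 0.0139 to 0.843. With tandem copies counted once, an alternative chosen after seeing the data, the log2 difference was 1.65.

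The number of regions called by limma was 0 as reported, 47 with total counts alone, 88 with no filter, 57 with the replicate block, 0 to 4 when 1 piglet was left out, and 0 under the other alternatives. Total counts alone split the 47 into 32 higher and 15 lower in GG, and no filter split the 88 into 69 and 19. TMM raised the median log2 difference of all regions to 0.21, against 0.07 with total counts. The ratio of GG to AA summed over the 5 loci, with the chromosome 10 and 15 copies as 0 in AA piglets, was 2.79. It was 1.53 to 9.57 when 1 piglet was left out, highest without AA piglet 2129 and lowest without AA piglet 524. The number of their stretches was 38, or 34 when 40 residues had to match, 37 at 90% identity and 34 when an alignment had to end on identical residues, the last chosen after seeing the data. The chromosome 1 copies turned positive with 0 counts where unlisted (0.11), with the replicate block (0.083), with run 2 of piglet 512 alone (0.13), and without GG piglet 512 (0.026) or GG piglet 2383 (0.14), the range with 1 piglet left out being -1.01 to 0.14. The causes of these changes were not tested. edgeR's test, planned as an alternative, was not run because the lists are cut at 5 counts. With 3 and 2 piglets, counts of 5 to 19 per stretch limit what the single copies can show.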
